A study of Mus musculus with 9 samples.

Results

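The 10 genes described here, Flt3, Kit, Lifr, Csf3r, Csf2ra, Csf2rb, Batf3, Irf8, Irf4 and Spi1, regulate or mark the dendritic and myeloid branches of blood formation. They were picked by gene symbol, and all 10 were found among the 55487 genes of the count table. RNA was sequenced from MCEC, an established endothelial line from mouse heart, with 3 libraries in each of 3 groups. The groups were the unmodified line (WT), a Zbtb46 knockdown (KD) and a Zbtb46 overexpression (OE), all in MCEC and with no other treatment in the labels. How the knockdown and the overexpression were made, and whether each modified line was 1 clone, is not given in the sources used here, and no library from cells carrying a control vector was analysed here. The labels do not say that the libraries of a group came from separate cultures, so p-values measure the spread between these libraries, which may be technical.

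Zbtb46 is a zinc finger transcription factor that marks classical dendritic cells among immune cells and is also made by endothelium. In earlier work on blood cells, forced Zbtb46 expression in marrow progenitors held back granulocyte development, and dendritic cells without it kept the receptors for G-CSF (Csf3r) and LIF (Lifr). Dendritic cells arise from progenitors that carry the receptor tyrosine kinases Kit and Flt3 and the GM-CSF receptor (Csf2ra with Csf2rb), under the factors Spi1, also called PU.1, Irf8, Irf4 and Batf3. The question for these genes was whether raising Zbtb46 in endothelial cells switched on any of that set or changed the cytokine receptors.

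Zbtb46 followed the labels in both directions, by unequal amounts. The normalised level (CPM, counts scaled to a common library total with TMM factors) averaged 13.7 ± 0.623 in WT, against 11.2 ± 0.537 in KD and 191 ± 2.67 in OE (SD, n = 3). The gene fell by 17.8% in KD (log2 fold change -0.28, SE 0.0548, edgeR quasi-likelihood test, adjusted p = 0.00144) and rose 14.0-fold in OE (log2 fold change 3.81, SE 0.0392, adjusted p = 3.22e-21). Library totals ran from 39491828 to 55745849 counts, so 3 counts, the upper limit that a count of 0 allows, corresponded to between 0.0504 and 0.0791 CPM. This limit covers counting error only. Nuclear and mitochondrial ribosomal RNA together took 7.44% to 17.3% of the counts in WT, 9.55% to 12.0% in KD and 14.4% to 18.2% in OE. Of 12 endothelial markers, 6 passed the filter on low counts, among them Kdr, Flt1, Eng and Cd34. Pecam1, Cdh5, Tie1, Vwf and Emcn, which define mature endothelium, stayed at or under 10 counts in every library, and Erg had 0, so the endothelial label was only partly matched by these markers. In KD 5 of the 6 were lower (Kdr, Flt1, Eng, Mcam and Cd34), and in OE 4 were lower (Kdr, Tek, Eng and Cd34) and Flt1 was higher. Over all tested genes, 10.4% were lower in KD, and 19.5% were lower and 17.0% higher in OE, by the same test. The Kdr call in OE was lost without WT replicate 1 (adjusted p = 0.0786), WT replicate 2 (0.0616) or OE replicate 1 (0.113). Log2 fold changes in KD and OE were -0.51 and -0.25 for Cd34, -0.20 and -0.55 for Eng, and -0.51 and 0.35 for Flt1, and Tek stood at -1.99 in OE.

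Most of the dendritic set stayed at or under 9 counts in every library, also when Zbtb46 was raised. Of the 10 genes, 6 were too low to be tested (Flt3, Irf8, Irf4, Spi1, Csf2ra and Csf2rb) and 4 passed the filter in the fit over all 9 libraries (Lifr, Batf3, Kit and Csf3r). Calls were made at an adjusted p under 0.05, from the edgeR quasi-likelihood model adjusted by Benjamini-Hochberg over 16955 genes. In OE against WT, 3 of those 4 were called: Kit rose, and Lifr and Batf3 fell. The share of all tested genes called in that comparison was 36.4%, with 17.0% higher and 19.5% lower in OE, and in 45.1% the groups did not overlap. In KD against WT, where 21.3% of tested genes were called (10.4% lower in KD and the rest higher, and 34.7% with groups that did not overlap), none of the 4 passed by edgeR (0 at an unadjusted p under 0.05, 0 by DESeq2 and 0 by limma-voom). In OE against KD, where 41.5% were called (19.4% higher and 22.1% lower in OE, and 55.4% without overlap), Kit was higher and Lifr lower. Across the 3 groups, 47.7% of tested genes and 2 of the 4 (Lifr and Kit) differed. KD and OE were both set against the same 3 WT libraries, so their values are given side by side. These shares of all tested genes are also the background for the counts of called genes in the lists below.

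The 4 transcription factors of the set fell into 1 that was expressed and 3 that were not. Irf8, which drives the cross-presenting dendritic lineage and monocytes, had 0, 4 and 0 counts in WT, 0, 0 and 1 in KD, and 0 in each of the 3 OE libraries. Irf4, a driver of the other main classical dendritic subset, had 3, 0 and 0 counts in WT, 0 in every KD library, and 2, 1 and 0 in OE. Spi1, the ETS-family master factor of myeloid cells, had 2, 0 and 1 counts in WT, 0 in every KD library, and 0, 1 and 0 in OE. For these 3 genes the groups overlapped, and no OE library held more counts than the highest WT library. With libraries of this size, expression of Irf8, Irf4 or Spi1 was not detectable above the level that 3 to 4 counts represent.

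**Figure D1:**
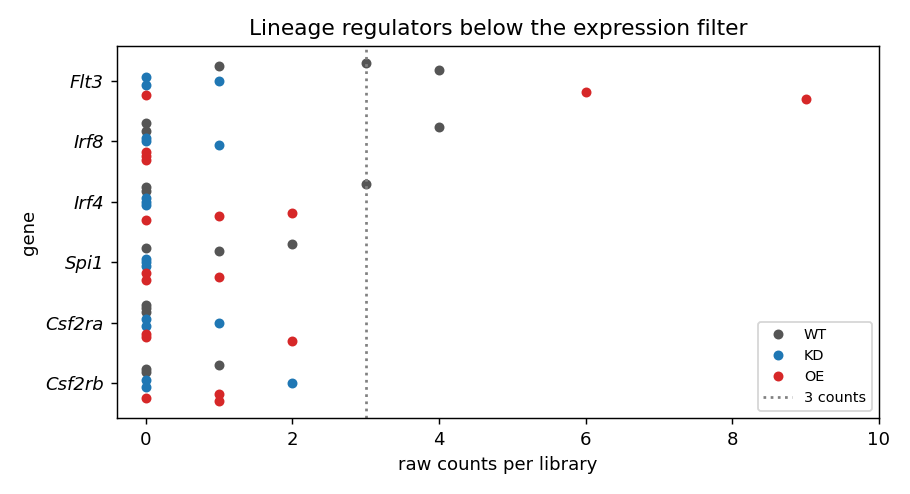
Raw counts in each library for the 6 genes below the filter on low counts (x axis, counts per library; y axis, gene; colours, WT, KD and OE; dotted line, 3 counts). Only Flt3, with 4, 6 and 9 counts, and Irf8, with 4 counts, have points to the right of the line.

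Batf3, Lifr and Kit, the genes whose levels differed in OE, are shown with the DNA before their RefSeq start sites, since these 3 moved in different directions (RefSeq, build GRCm38.p6, plus strand, 5′ to 3′). Each run starts 250 bases before the start and stops where GENCODE annotates an untranslated region, and capitals mark matches to the motifs searched. Batf3 lies at chr1:191097847-191108945, Lifr at chr15:7090614-7197489 and Kit at chr5:75574916-75656722 (GRCm38, GENCODE M21). The runs are chr5:75574737-75574915 for Kit, chr15:7129322-7129558 for the upstream and chr15:7140292-7140541 for the downstream start of Lifr, and chr1:191098164-191098324 for Batf3.
Kit: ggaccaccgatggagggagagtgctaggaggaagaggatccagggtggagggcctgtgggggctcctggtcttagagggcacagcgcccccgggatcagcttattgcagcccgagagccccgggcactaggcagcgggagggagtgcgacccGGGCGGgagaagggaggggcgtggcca
Lifr upstream start: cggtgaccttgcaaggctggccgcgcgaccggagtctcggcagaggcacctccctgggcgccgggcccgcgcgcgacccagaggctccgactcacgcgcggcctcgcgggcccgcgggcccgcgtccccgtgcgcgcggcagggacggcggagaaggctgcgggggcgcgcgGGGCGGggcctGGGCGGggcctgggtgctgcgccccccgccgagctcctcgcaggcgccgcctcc
Lifr downstream start: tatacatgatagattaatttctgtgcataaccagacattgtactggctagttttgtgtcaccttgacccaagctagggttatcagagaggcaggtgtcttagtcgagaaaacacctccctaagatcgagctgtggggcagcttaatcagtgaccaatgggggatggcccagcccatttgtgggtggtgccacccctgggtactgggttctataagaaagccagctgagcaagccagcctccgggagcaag
Batf3: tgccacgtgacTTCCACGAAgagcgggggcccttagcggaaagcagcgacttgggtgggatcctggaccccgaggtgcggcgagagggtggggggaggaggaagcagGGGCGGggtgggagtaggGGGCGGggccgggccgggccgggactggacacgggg

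Over the whole 250 bases the GC content was 70.8% for Kit, 82.4% for the upstream and 50.8% for the downstream Lifr start and 76.0% for Batf3, against a median of 52.4% over 32851 windows. CpG dinucleotides numbered 17 for Kit, 43 and 3 for the Lifr starts and 27 for Batf3, against a median of 6. A second RefSeq window of Kit, chr5:75574741-75574990, overlaps the first and is not printed. It had 70.8% GC, 18 CpG and 1 GC box. On both strands, the GC box GGGCGG was found once at Kit, in 2 places at the upstream Lifr start, in 0 at the downstream one and in 5 at Batf3, 2 of which overlap each other; 32.7% of all windows hold it. The STAT-type site TTCNNNGAA was found once, at Batf3 as TTCCACGAA, and 7.02% of windows hold it. No window of these 3 genes held the CRE core TGACGT (6.47% of all windows), the AP-1 site TGANTCA (6.75%) or the IRF-type site GAAANNGAA (7.13%). These matches describe letters only. Of the 10 genes, 8 had a window in the RefSeq table.

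Batf3, the bZIP factor required for cross-presenting dendritic cells, was the only 1 of the 4 lineage factors above the filter, and it fell in OE. Its level was 3.82, 3.02 and 3.85 CPM in WT, 3.56, 2.79 and 2.89 in KD, and 2.83, 2.24 and 2.42 in OE. Every OE library lay below every WT library, while KD overlapped both other groups. The mean fell from 3.57 ± 0.468 to 2.50 ± 0.304 CPM (SD, n = 3), 29.6% lower, with a log2 fold change of -0.51 (SE 0.149, edgeR adjusted p = 0.0247). KD differed from WT by -0.20 (SE 0.156, adjusted p = 0.457), and OE from KD by -0.30 (SE 0.146, adjusted p = 0.174). The call in OE was lost when any 1 of 4 libraries was left out: adjusted p was 0.0796 without WT replicate 1, 0.0712 without WT replicate 3, 0.107 without OE replicate 2 and 0.0711 without OE replicate 3. The values without them were -0.45, -0.45, -0.43 and -0.48. Ribosomal RNA share was higher in OE than in KD as given above, and its part in this and the following differences was not tested.

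Kit, the receptor for stem cell factor, was the only tested gene of the set that rose in OE, from a very low level. It had 20, 30 and 22 counts in WT, 21, 24 and 11 in KD, and 84, 85 and 44 in OE. Scaled to depth these were 0.527, 0.504 and 0.492 CPM in WT, 0.417, 0.603 and 0.225 in KD, and 1.79, 1.72 and 0.978 in OE. All OE libraries lay above all WT and KD libraries, and OE replicate 3 was well below the other two. Kit was 2.94-fold higher in OE than in WT (log2 fold change 1.56, SE 0.274, edgeR adjusted p = 0.00127) and 3.64-fold higher than in KD (1.87, SE 0.459, adjusted p = 0.000223). KD against WT gave -0.31 (SE 0.370, adjusted p = 0.649). In bulk RNA, few cells with much Kit RNA and many cells with little cannot be told apart, as fewer cells of a type and less RNA per cell cannot. Kitl, which encodes the Kit ligand, was at 32.9 ± 4.83 CPM in WT and 33.9 ± 1.32 in OE, with a log2 fold change of 0.04 (SE 0.123, adjusted p = 0.779). Without WT replicate 2 that value became 0.16 and passed the test (adjusted p = 0.0476).

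Flt3, the receptor whose ligand drives dendritic cell production, stayed near the detection limit. It had 3, 1 and 4 counts in WT, 0, 1 and 0 in KD, and 6, 0 and 9 in OE. The groups OE and WT overlapped, and 1 OE library had 0 counts. In a fit without the filter on low counts, edgeR gave Flt3 an unadjusted p of 0.0363 for OE against KD, with an adjusted p of 0.145, and none of the 6 low genes passed in any comparison. The gene for its ligand, Flt3l, had 34 to 90 counts in every library and was not called in KD or OE.

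Lifr, the LIF receptor subunit that signals with gp130, was the highest of the 10 genes and fell in OE. Its level was 35.4, 43.2 and 37.9 CPM in WT, 36.8, 35.8 and 38.7 in KD, and 30.2, 29.7 and 29.0 in OE. The 3 OE libraries lay close together and below all 6 others, while KD lay within the WT range. The mean was 38.8 ± 3.97 CPM in WT, 37.1 ± 1.43 in KD and 29.6 ± 0.581 in OE (SD, n = 3). OE was 23.9% lower than WT (log2 fold change -0.39, SE 0.0856, edgeR adjusted p = 8.84e-05) and 20.2% lower than KD (-0.33, SE 0.0359, adjusted p = 0.000514). KD against WT gave -0.07 (SE 0.0899, adjusted p = 0.538).

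Csf3r, the G-CSF receptor of granulocytes, was detected at a low level in every library and its groups overlapped. It had 9, 24 and 12 counts in WT, 12, 12 and 20 in KD, and 9, 8 and 18 in OE. The means were 0.303 ± 0.0882, 0.317 ± 0.0867 and 0.251 ± 0.130 CPM in that order (SD, n = 3). OE against WT gave a log2 fold change of -0.30 (SE 0.399, adjusted p = 0.704, edgeR quasi-likelihood test) and KD against WT 0.04 (SE 0.285, adjusted p = 0.972). A difference in Csf3r was not detected at this depth. In counts simulated for OE against WT, the test recovered 5.26% of 19 genes under 1 CPM that were changed 2-fold. Of all 94 genes changed by that amount it recovered 77.7%. The simulation called 135 of 16448 genes, and the data 6174 of 16955. An adjusted p under 0.05 therefore required a smaller unadjusted p in the simulation. Its recovery may understate what the test detects in the data.

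Both chains of the GM-CSF receptor were at or near 0 counts in each group. Csf2ra, its ligand-binding chain, had 0 counts in all WT libraries, 0, 1 and 0 in KD, and 0, 0 and 2 in OE. Csf2rb, the signalling chain shared with the receptors for IL-3 and IL-5, had 1, 0 and 0 counts in WT, 0, 2 and 0 in KD, and 1, 0 and 1 in OE. Its near-identical neighbour Csf2rb2, with which reads could be shared, had at most 1 count in any library. No library exceeded 3 counts for either chain.

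**Figure D2:**
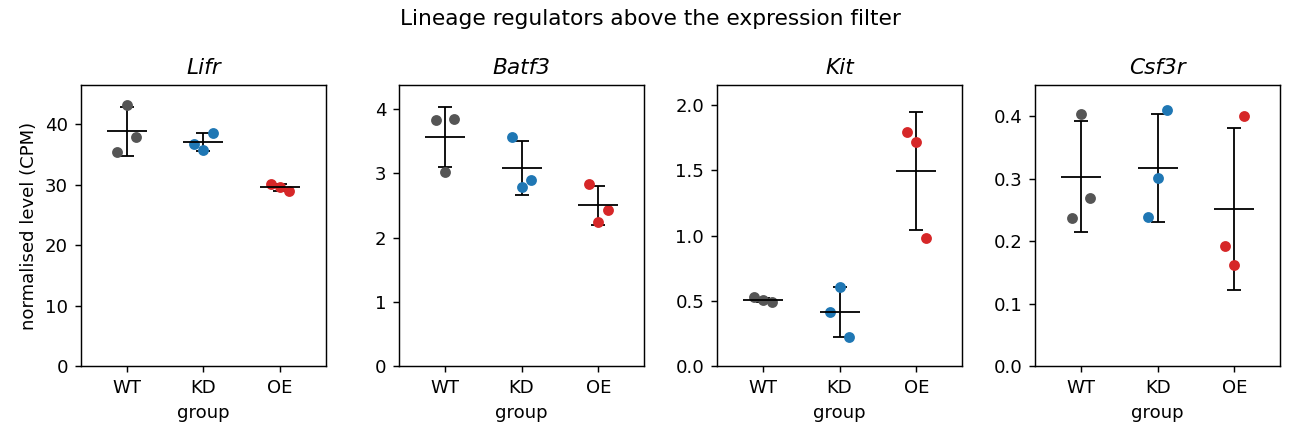
Normalised level in each library (y axis, CPM, each panel on its own linear scale from 0) for Lifr, Batf3, Kit and Csf3r in WT, KD and OE (x axis); points are libraries, long bars the mean and whiskers 1 SD of 3. OE lies below WT for Lifr and Batf3 and above it for Kit, and the groups overlap for Csf3r.

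Levels of different genes were compared per kilobase of exon (RPKM). In WT, Lifr stood at 3.60 ± 0.369 RPKM and Batf3 at 2.23 ± 0.293, followed by Csf3r at 0.0840 ± 0.0245 and Kit at 0.0570 ± 0.00200 (SD, n = 3). These 4 neighbours did not overlap each other in WT. In OE, Lifr (2.75 ± 0.0539 RPKM) and Batf3 (1.57 ± 0.190) kept the top places, and Kit (0.168 ± 0.0504) came before Csf3r (0.0696 ± 0.0360), with ranges that overlapped. Neighbours among the 6 low genes overlapped in every group. The genes whose log2 CPM followed Lifr most closely over the 9 libraries were Gtdc1 (Pearson r = 0.98) and Znrf3 (0.97). Those most like Batf3 were Zfp574 (0.96) and Gpr137 (0.94). These correlations are descriptions over libraries that share the same 3 groups.

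Around Lifr, the gp130 receptor system of IL-6-type cytokines was lower in several places in OE. Of its 15 genes 13 were tested. In OE 6 were lower (Lifr, Il6st, Osmr, Lif, Il6 and Ctf1) and 1 was higher (Il6ra), with a median log2 fold change of -0.17 against 0.0020 over all genes. Leaving out 1 library at a time gave 4 to 6 lower. Il6st, which encodes gp130, fell from 344 ± 37.3 CPM in WT to 198 ± 6.47 in OE (log2 fold change -0.80, SE 0.0970, edgeR adjusted p = 1.37e-08). The median of all genes in its 20 Mb window was -0.26, and relative to it Il6st stood at -0.54. Lif, the ligand, fell from 27.4 ± 2.10 to 15.3 ± 1.12 CPM (-0.84, SE 0.0881, adjusted p = 1.24e-08), or -0.32 relative to its window. Il6ra, the IL-6 binding chain, rose from 1.05 ± 0.116 to 2.53 ± 0.832 CPM (1.26, SE 0.284, adjusted p = 0.00122), and part of its exons overlap another gene, with strand use of the counting not given. In KD, Il6st (0.26, adjusted p = 0.00438) and Osmr (0.20, adjusted p = 0.0168) were higher and Ctf1 was lower (-0.30, adjusted p = 0.0380) by edgeR. Relative to the median of its 20 Mb window, Il6st in KD stood at 0.094. Scaling by library totals alone removed the Il6st (adjusted p = 0.0748) and Osmr (adjusted p = 0.183) calls in KD, and the Osmr call also went when KD replicate 1 (0.0601), KD replicate 2 (0.0990) or WT replicate 1 (0.0817) was left out. The Ctf1 call in KD was lost without WT replicate 1 (adjusted p = 0.191), without KD replicate 1 (0.146), 2 (0.0746) or 3 (0.0778), and without OE replicate 1 (0.0525) or 2 (0.0527). It was also lost with no filter on low counts (0.0591) and with only the groups compared in the fit (0.0584). Ctf1 shares 87 exon bases with Ctf2 on the opposite strand. The Osmr call in OE (-0.17, adjusted p = 0.0295) was lost without WT replicate 2 (adjusted p = 0.134), OE replicate 1 (0.137) or OE replicate 2 (0.0618), and the Il6 call (-1.60, adjusted p = 0.0164) without WT replicate 3 (0.0824), OE replicate 1 (0.0648) or OE replicate 3 (0.0744). The Osmr call in OE was also lost with upper-quartile scaling (adjusted p = 0.0642) and with only the groups compared in the fit (0.0522).

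Around Kit and Flt3, 8 of the 9 class III receptor tyrosine kinase genes and ligands were tested. In OE, Kit was higher and 3 were lower: Csf1, the macrophage growth factor, and the PDGF receptors Pdgfra and Pdgfrb. Csf1 fell from 824 ± 16.2 to 366 ± 7.07 CPM (log2 fold change -1.17, edgeR adjusted p = 1.94e-15), Pdgfrb by 1.42 (adjusted p = 5.17e-05) and Pdgfra by 0.35 (adjusted p = 0.00397) on the log2 scale. In KD, Csf1 was the 1 gene of this list called, and it was higher (0.28, adjusted p = 1.46e-05). Of the 12 genes around the GM-CSF and G-CSF receptors, 2 were tested (Csf3r and Epor) and 0 were called by edgeR in KD or OE.

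**Figure D3:**
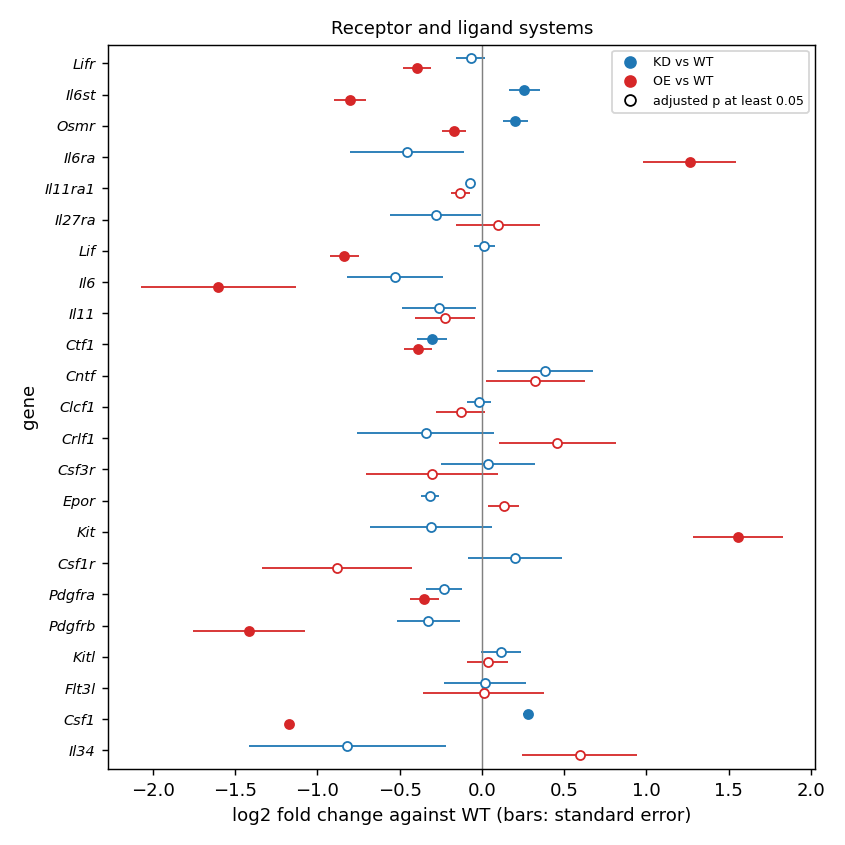
Log2 fold change against WT (x axis) for the 23 tested genes of the gp130, common beta and class III kinase systems (y axis) in KD and OE, with bars of 1 standard error and open points where adjusted p was at least 0.05. Kit (1.56) and Il6ra (1.26) lie farthest right among filled OE points, and Il6 (-1.60), Pdgfrb (-1.42) and Csf1 (-1.17) farthest left.

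A list of other cytokine receptors, which also holds the cytokine genes Thpo and Tslp, had genes changed in both directions. Of 22 genes 18 were tested, with 4 higher and 6 lower in OE and 2 higher and 3 lower in KD (1 lower without KD replicate 1 or KD replicate 2). Ghr, the growth hormone receptor, fell in OE (log2 fold change -0.58, edgeR adjusted p = 9.57e-07), as did Il4ra, the IL-4 receptor chain (-0.52, adjusted p = 1.24e-05). Il1rap, a shared chain of IL-1-type receptors, was higher in KD (0.30, adjusted p = 0.00225) and lower in OE (-0.24, adjusted p = 0.00670). Crlf2, the receptor chain for TSLP, fell in KD from 4.01 ± 1.18 to 1.25 ± 0.213 CPM (-1.66, adjusted p = 9.37e-06). In OE it stood at 5.89 ± 0.685 CPM (0.56, adjusted p = 0.0208), a call lost without WT replicate 1 (0.0595), WT replicate 2 (0.122) or OE replicate 2 (0.112).

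Downstream of Lifr, Csf3r and the GM-CSF receptor are the JAK kinases, the STAT factors and their inhibitors. In OE more of these were lower than higher. Of 23 genes 22 were tested. In OE 10 were lower and 4 higher, with a median log2 fold change of -0.22, and leaving out any 1 library again gave 10 lower. Stat5b, a main target of Kit and GM-CSF receptor signalling, fell from 63.5 ± 1.23 to 42.5 ± 1.97 CPM (-0.58, edgeR adjusted p = 1.02e-08), and Stat5a fell by 0.43 on the log2 scale. Stat3, which relays LIF receptor signals, fell by 0.28 (adjusted p = 5.55e-06). Jak3 fell by 0.94 (adjusted p = 1.77e-08) and the phosphatase gene Ptpn6 by 0.77 (adjusted p = 7.53e-06), and Jak3 shares exon bases with a neighbouring gene. Stat2 was higher (0.65, adjusted p = 4.42e-05). Jak1 was higher too (0.36, adjusted p = 8.04e-07), at -0.0015 relative to the median of its 20 Mb window, and Tyk2 (-0.57) stood at -0.22 and Pias1 (-0.50) at -0.16 on that basis. In KD 4 were lower (Jak3, Socs1, Socs3 and Socs5), and without KD replicate 1 there were 2 lower. Socs3, the feedback inhibitor of gp130 signalling, was lower in both KD (-0.34, adjusted p = 0.000135) and OE (-0.39, adjusted p = 9.46e-06).

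**Figure D4:**
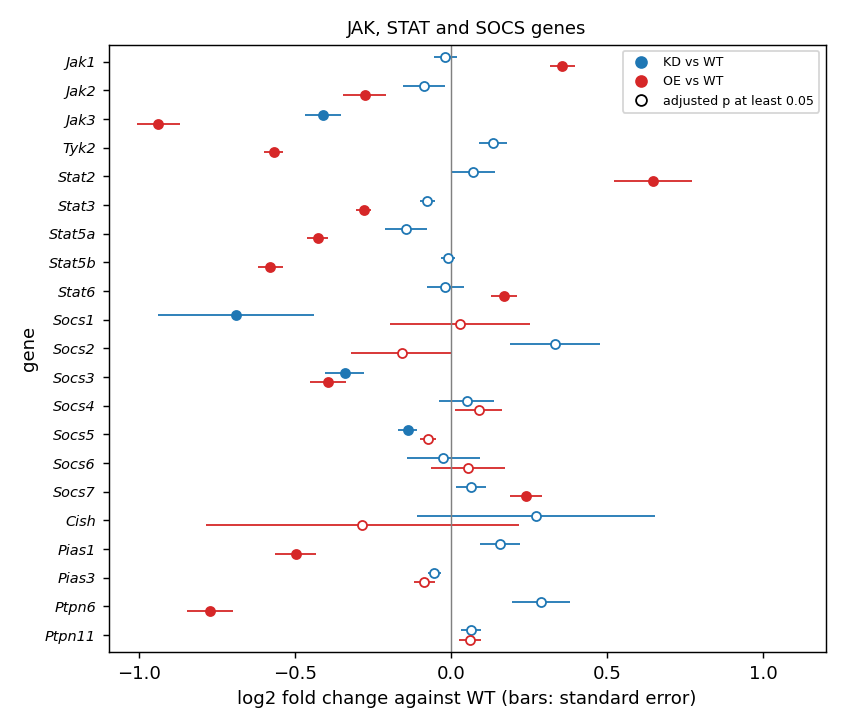
Log2 fold change against WT (x axis) for 21 of the 22 tested JAK, STAT and SOCS genes (y axis) in KD and OE, with bars of 1 standard error and open points where adjusted p was at least 0.05. Filled OE points left of 0 number 9, with Jak3 (-0.94) and Ptpn6 (-0.77) farthest out.

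Relatives of the lineage factors were described from the same fit. The IRF list held 11 genes, counting Irf2bp1 and Irf2bp2, which encode IRF2-binding proteins and are not IRFs. Of these 11, 8 were tested. Over all tested genes, 36.4% were called in OE and 21.3% in KD. Irf5, an IRF of macrophages, was at 31.0 ± 1.89 CPM in WT. Irf5 fell in KD (log2 fold change -0.54, edgeR adjusted p = 1.47e-05) and was not called in OE (0.16, adjusted p = 0.0829), and its exons overlap a neighbour. In OE, Irf9 was lower (-0.43, adjusted p = 0.000844), and Irf7 and Irf2bp2 were higher. The Irf7 call (0.79, adjusted p = 0.0383) was lost without WT replicate 3 (0.178), OE replicate 1 (0.0656) or OE replicate 2 (0.170), and without KD replicate 1 (0.0510). The Irf7 call was also lost with library totals alone (0.0614) and with only the groups compared in the fit (0.0618). Library totals alone also removed the Irf2bp2 call in OE (adjusted p = 0.0869). In KD, Irf5 and Irf2 were lower and Irf2bp2 higher, and without KD replicate 1 or KD replicate 3 the calls left were 1 lower and 0 higher.

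Among the 10 genes of the BATF, JUN and FOS families 8 were tested, and Batf and Batf2 never exceeded 6 counts. In KD 5 were lower (Jun, Junb, Jund, Fosb and Fosl1) and Fosl2 was higher, with a median log2 fold change of -0.45 against -0.0022 over all genes. Without KD replicate 1 or KD replicate 2 there were 3 lower, and the Fosl1 call (-0.55, adjusted p = 0.0303) was lost there and without WT replicate 1 (0.0958). The Fosl1 call was also lost by limma-voom (adjusted p = 0.0670) and with only the groups compared in the fit (0.0845). Jun, the usual partner of BATF-type factors, fell by 0.52 (adjusted p = 1.06e-05) and Junb by 0.38 (adjusted p = 0.000697) on the log2 scale in edgeR's test. In OE, Fosl1 rose from 2.24 ± 0.175 to 6.37 ± 0.248 CPM (1.51, adjusted p = 1.84e-07), with exon bases shared with a neighbouring gene. Jund was also higher in OE, a call lost with library totals alone (adjusted p = 0.0848). Batf3, Fosb and Fosl2 were lower in OE, and 1 of the 3 was called without WT replicate 3 or without OE replicate 3. Spib was the only tested relative of Spi1, at 0.637 ± 0.202 CPM in WT, 0.256 ± 0.142 in KD and 0.292 ± 0.0782 in OE. It was not called in KD (-1.32, adjusted p = 0.0542) or OE (-1.11, adjusted p = 0.0717) by edgeR, though in KD it passed by DESeq2 (adjusted p = 0.0480) and limma-voom (0.0379).

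**Figure D5:**
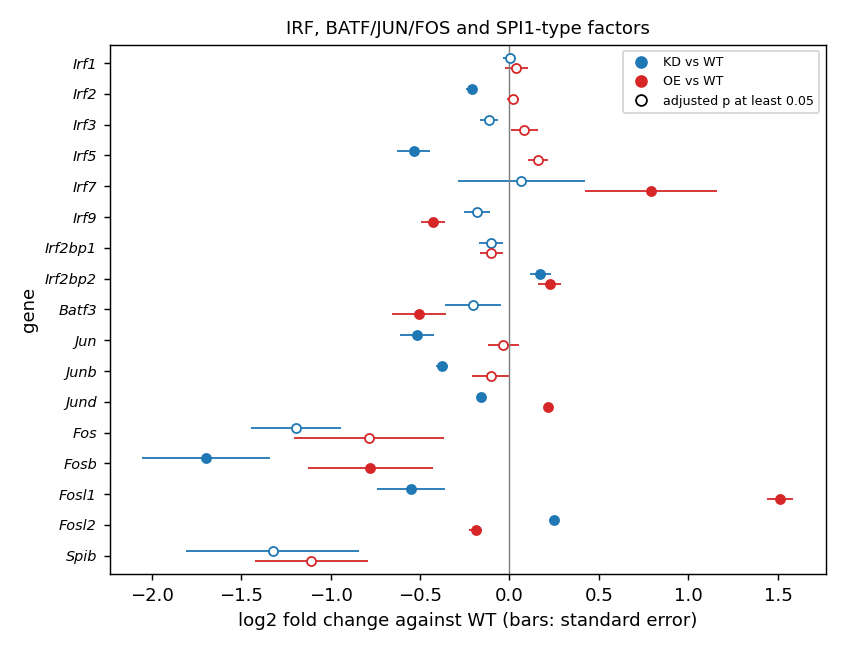
Log2 fold change against WT (x axis) for the 17 tested genes of the IRF, BATF, JUN, FOS and SPI1-type lists (y axis) in KD and OE. Irf2bp1 and Irf2bp2 are among them. Bars are 1 standard error, and points are open where adjusted p was at least 0.05. Fosl1 in OE (1.51) is the farthest right, and Batf3 in OE (-0.51) is a filled point left of 0.

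Marker lists for blood cells placed the 10 genes in context. Of 24 classical dendritic cell genes 14 were tested. Among those not tested, Xcr1, Clec9a, Itgax, Ciita, H2-Ab1 and H2-Aa had at most 5 counts in any library. Ccr7 was tested, with 16, 10 and 19 counts in WT, 8, 3 and 14 in KD, and 32, 31 and 26 in OE. It was higher in OE than in KD (log2 fold change 1.81, edgeR adjusted p = 0.00631). Against WT, Ccr7 in OE was not called (0.93, adjusted p = 0.137), though every OE library lay above every WT library. In OE 5 of the list were higher (Id2, Tlr3, Nfil3, Relb and Bcl6) and 2 lower (Fscn1 and Cadm1), and without OE replicate 2 there were 3 higher. Id2, an inhibitor of bHLH factors needed by several dendritic and innate cells, rose from 43.6 ± 2.14 to 87.8 ± 1.26 CPM in OE (log2 fold change 1.01, SE 0.0423, edgeR adjusted p = 5.49e-12) and fell in KD to 34.7 ± 1.94 (-0.33, SE 0.0623, adjusted p = 0.000169). Fscn1, an actin-bundling gene of mature dendritic and many other cells, carried most of the list's summed level and fell in OE (-0.51, adjusted p = 8.36e-10). In KD 3 of the list were lower (Id2, Cadm1 and Cd24a) and Nfil3 was higher. Cd24a, a surface glycoprotein gene, stood at -0.25 in KD (adjusted p = 0.0119), a call lost without WT replicate 1 (0.0644) or KD replicate 1 (0.0706), and the Nfil3 call was lost without KD replicate 1. The summed level was 2272 to 2375 CPM in WT, 2393 to 2526 in KD and 1706 to 1772 in OE. Ccr7 and the members named here without values were chosen after their values were seen.

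Granulocyte, pan-leukocyte and monocyte genes were low in summed level. None of 13 granulocyte genes was tested, and S100a9, Ly6g and Retnlg had 0 counts. Of 12 pan-leukocyte genes only Coro1a was tested, and edgeR called it neither in KD (log2 fold change -0.79, adjusted p = 0.257) nor in OE (-1.04, adjusted p = 0.0914), and Ptprc, which encodes CD45, had at most 2 counts. Of 18 monocyte and macrophage genes 5 were tested. Mertk, a receptor for dying cells, fell in KD (log2 fold change -0.65, adjusted p = 0.00415, edgeR) and in OE (-0.92, adjusted p = 7.33e-05). Cd14, a co-receptor for bacterial lipopolysaccharide, was lower in KD (-0.69, adjusted p = 0.0151) and higher in OE (0.59, adjusted p = 0.0159). These Cd14 calls were lost without KD replicate 1 (0.0828) and without OE replicate 1 (0.132), respectively. The summed level of the monocyte and macrophage list was 12.0 to 13.9 CPM in WT, 10.7 to 11.3 in KD and 9.87 to 11.6 in OE.

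Plasmacytoid dendritic genes and progenitor factors were partly expressed in all groups. Of 10 plasmacytoid dendritic genes 5 were tested and Runx2 was called, higher in OE (0.43, adjusted p = 9.59e-05). Cox6a2 was not called in KD (-0.90, adjusted p = 0.457). Of 18 progenitor factors 15 were tested, with 4 higher and 7 lower in KD and 5 higher and 6 lower in OE. Klf4, a factor of monocytes and endothelium, was higher in KD (0.65, adjusted p = 2.64e-08) and in OE (0.18, adjusted p = 0.0140) by edgeR. The OE call on Klf4 was lost with library totals alone (adjusted p = 0.300) and without WT replicate 1 (0.0750) or OE replicate 2 (0.0511). Tal1, a bHLH factor of blood and endothelial progenitors, had 189, 264 and 176 counts in WT, 6, 1 and 2 in KD, and 9, 6 and 1 in OE. Tal1 therefore fell in both modified lines (log2 fold change -6.05 in KD, adjusted p = 7.12e-10, and -5.27 in OE, adjusted p = 3.38e-10, edgeR).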

How the data were processed

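RNA from the 9 MCEC libraries was purified on columns, enriched for poly-A and sequenced from both ends, per the labels' protocols. The authors deposited whole-number counts per gene and library, not normalised. The builds GRCm38 and mm10 are named in the submitters' processing notes; the aligner, the counting program, the annotation and the use of strand are not given in the sources used here. Of 55774 rows, 455 repeat 168 genes with identical counts, and each gene was counted once. All rows name a gene and 0 sample columns were left over.

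Genes were filtered with filterByExpr by group (16955 kept), scaled with TMM and fitted in edgeR 4.0.16 (quasi-likelihood, robust) in 1 model of all 9 libraries under R 4.3.3, with Benjamini-Hochberg adjustment over all genes tested and calls at 0.05. With 3 libraries against 3, exact permutation reaches a two-sided p of 0.1 at best. Standard errors of fold changes use the spread of log2 CPM values (prior count 2) within groups. DESeq2 1.42.0, limma-voom 3.58.1, other scalings, no filter, the replicate block, pairwise fits, removal of the median of each 20 Mb window and leaving out each library were alternatives. The test was tested on simulated counts. Exon lengths and positions come from GENCODE M21, motifs and tables from Python 3.11.15, pandas 2.3.3 and numpy 2.4.6, and figures from matplotlib 3.10.9.

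The 10 genes and the 15 other lists were chosen with earlier results of these data known. Named genes were the 10, Zbtb46, genes of their receptor, IRF, BATF/JUN/FOS, SPI1 and JAK/STAT/SOCS lists, the 2 genes with the smallest p in each comparison from the other lists, and the 2 genes most correlated with each of the 10 that averaged at least 1 CPM. A gene of these lists is not reported here.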

Additional observations from a re-analysis of the deposited data

How the results depend on the processing

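The calls on Lifr and Kit in OE kept their direction and passed under all alternatives tried. Against WT, the log2 fold change of Lifr ran from -0.46 to -0.32 (adjusted p 9.19e-09 to 0.000957) and that of Kit from 1.41 to 1.79 (9.98e-05 to 0.0115), and Batf3 ran from -0.63 to -0.43 (0.00878 to 0.107). Of the 10 genes, 2 or 3 were called in OE against WT. Genes called numbered 2473 to 4699 in KD against WT, 5129 to 6452 in OE against WT and 6019 to 8138 in OE against KD. With the replicate block they numbered 3574, 6111 and 6969, and 0, 3 and 2 of the 10 genes were called; the Ctf1 call in KD was lost there (adjusted p = 0.0501). The numbers did not pair the libraries: deviations of same-numbered libraries correlated between -0.042 and 0.049, and 7 of 18 correlated best with their own number.

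Some small differences changed sign. Csf3r in KD gave -0.0085 with library totals alone and, without 1 library, values from -0.20 to 0.32. Lifr in KD gave -0.13 to 0.018 without 1 library. Kitl in OE gave -0.030 with library totals alone, -0.033 to 0.16 without 1 library and -0.031 with window medians removed, and Jak1 in OE -0.0015 with window medians removed. The cause was not tested. The alternatives for the lists were chosen after seeing the data. The 6 lowest genes allow no statement on direction at this depth. For genes under 1 CPM the simulated recovery was low, in a simulation that called far fewer genes than the data.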
